A study of Homo sapiens with 4 samples.

Results

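The 9 genes described here encode chromatin cofactors: the SWI/SNF subunits ARID1A, ARID1B, ARID2, SMARCA2 and SMARCA4, the histone acetyltransferases EP300 and CREBBP, and the bromodomain proteins BRD2 and BRD3. They were chosen by name, with earlier results of these data known. Their N6-methyladenosine (m6A) peaks were taken from the deposited list by matching its Ensembl gene IDs to symbols. Of the 9 genes, 7 had a peak, with 33 of the 20261 listed peaks between them, and these genes are 7 of the 10140 gene IDs with a peak. The RNA was from MDA-MB-231, a human cell line of triple-negative breast cancer, and every library is labelled shNS in its title. Poly(A) RNA was fragmented, and 2 libraries immunoprecipitated (IP) with an anti-m6A antibody were set against 2 input libraries that were not. The treatment field of the IP libraries names YTHDC1, an m6A reader, whereas their titles and protocol describe the anti-m6A antibody, and the latter was followed. The list does not separate the 4 libraries and gives 1 score per peak, so that no value of a single library, no spread between replicates and no test between groups can be given. Read depth is unknown, the list holds no expression values, and the identity of the cells could not be checked against marker levels.

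m6A is written onto mRNA by the METTL3 and METTL14 complex, mostly at adenosines in a short sequence context, and it is known to gather in long internal exons and around stop codons. SWI/SNF complexes use ATP to move or evict nucleosomes: SMARCA2 and SMARCA4 are the alternative ATPases, ARID1A and ARID1B are alternative large subunits of the BAF form, and ARID2 belongs to the PBAF form. EP300 and CREBBP acetylate histones and act as coactivators of many transcription factors, SMAD3 among them, and BRD2 and BRD3 bind acetylated histones through their bromodomains.

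Scores are the authors' deposited values, read here as the peak caller's p-value for IP against input, so that a smaller score is a stronger peak. An FDR from the same caller cannot be told apart from the file. The median score of the whole list was 5.2e-08. Minus-strand genes had much stronger peaks in this list than plus-strand genes: the median smallest score was 7.9e-32 over 5306 minus-strand protein-coding genes with a peak and 1e-06 over 2870 plus-strand ones. Each gene was therefore compared with genes on its own strand. A rank below is the share of same-strand protein-coding genes with a peak that were at least as strong, or had at least as many peaks. Ranks by number of peaks or by bases under peaks were not adjusted for the length of the transcript or its expression.

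A peak was listed for 7 of the 9 genes, against 40.8% of all 20037 protein-coding genes of RefSeq. That background includes genes these cells may not express. On 6 of the 9, at least 1 peak scored no higher than the list median, against 26.6% of protein-coding genes. Both backgrounds take plus- and minus-strand genes together, and shares within a strand are not given for them. More of the genes with a peak were on the minus strand (5306) than on the plus strand (2870). ARID2 on chromosome 12 and BRD2 on chromosome 6 had no peak. An unmethylated transcript and a weakly expressed one cannot be told apart here. The 5 plus-strand genes with a peak were ARID1A, ARID1B, SMARCA2, SMARCA4 and EP300, with 23 peaks, and the 2 minus-strand genes were CREBBP and BRD3, with 10 peaks. In 4 of the 5 plus-strand genes the smallest score was at or under the list median, against 41.5% of plus-strand genes with a peak. The same held for both minus-strand genes, against a background of 77.9%.

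The plot of peaks along the gene span shows where the 33 peaks lay. Place was measured along the genomic span of the gene in RefSeq, introns included. Which exon, coding sequence or untranslated region a peak lies in was not analysed here.

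**Figure D1:**
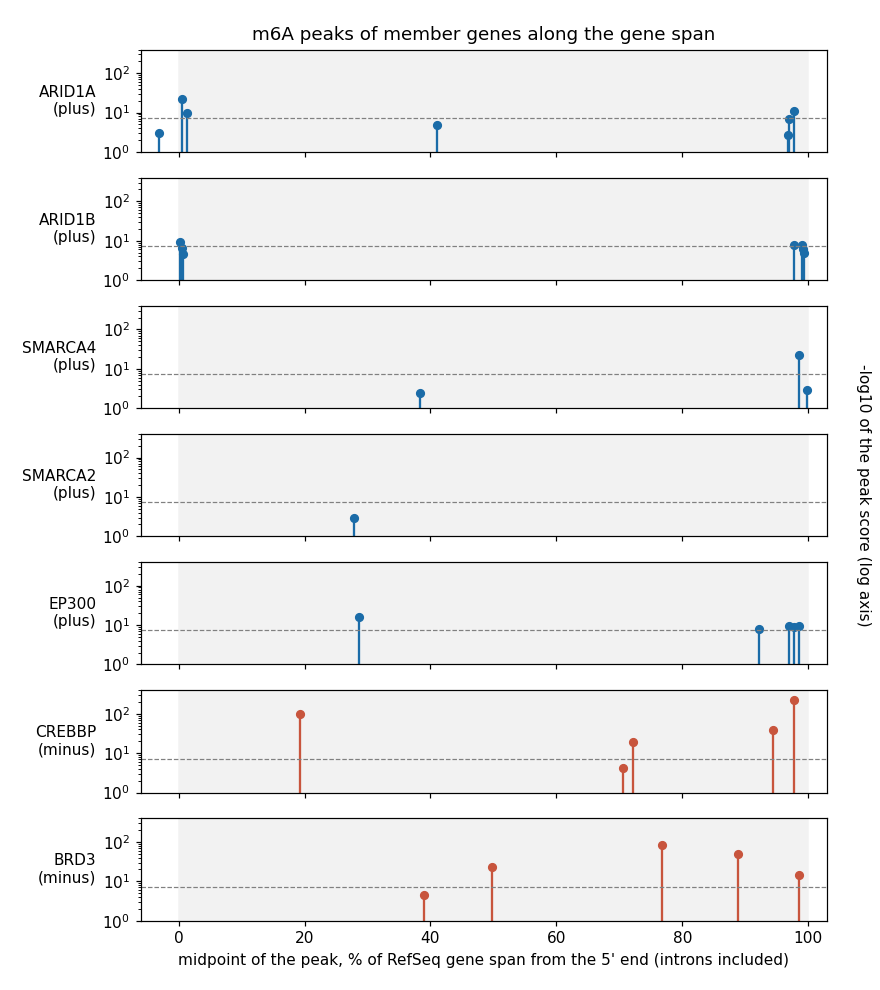
Each point is 1 peak of the 7 member genes that had any, placed by its midpoint as a percentage of the RefSeq gene span from the 5′ end (horizontal axis) and by the −log10 of its score (vertical log axis); blue is the plus strand, red the minus strand, the grey area is the span and the dashed line is the list median. ARID1A and ARID1B carried peaks at both ends of the gene, EP300 and CREBBP had 1 strong peak in the first 30% and their other peaks in the last 30%, and SMARCA2 had 1 weak peak.

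The paralogues ARID1A and ARID1B had the most peaks, 7 each, a number reached by 0.383% of plus-strand genes with a peak. In both, peaks were found near the 5′ end and near the 3′ end of the gene, and few or none between. ARID1A (ENSG00000117713.20, chromosome 1, plus strand) had 2373 spliced bases under peaks, and only 0.139% of plus-strand genes had as many. Its strongest peak, 26696322 to 26696771, was 450 bases long with a score of 1e-22, and began 307 bases after the 5′ end of the RefSeq span. It was followed after 119 bases by a peak of 541 bases (score 2.4e-10), so that 89.3% of a stretch of 1110 bases was under peaks. A single peak of 270 bases lay at 41.0% of the span (score 1.4e-05). A further 3 peaks stood within a stretch of 1409 bases that ended 1498 bases before the 3′ end. They were 61, 270 and 720 bases long, with scores of 0.0018, 1.2e-07 and 5e-12, and the longest of them was also the strongest and the nearest to the 3′ end. The first peak of the gene, 61 bases with a score of 0.00076, lay before the start of the RefSeq span (26693356 to 26693416), and 60 of its bases were also under a stronger minus-strand peak of ENSG00000260063 (4.4e-09).

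ARID1B (ENSG00000049618.23, chromosome 6, plus strand) spans 434754 bases, and the midpoints of its 7 peaks lay at 0.264% to 0.644% or at 97.8% to 99.3% of that span. At the 5′ end, 3 peaks stood within 1980 bases. The first, 156776995 to 156777355, was the strongest of the gene (361 bases, 7.4e-10). Of these, 347 bases were also under a minus-strand peak of ENSG00000271551 with a similar score (4.2e-10), and the list does not say which of these transcripts the signal came from. The next were 181 bases (4.1e-07) and 301 bases long (2.8e-05). After a gap of 422019 bases without a peak came a peak of 151 bases (2.4e-08), and then 3 peaks of 271, 211 and 361 bases within 1591 bases, the last of which ended 2938 bases before the 3′ end. Their scores were 1.3e-08, 7.4e-07 and 1.4e-05. ARID1B thus had as many peaks as ARID1A and a weaker strongest peak, while the weakest peaks of the pair were those of ARID1A, and 3 in each gene were at or under the list median.

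Sequence could be read under 3 of these 5′ peaks, because windows around annotated transcription start sites of RefSeq (GRCh38.p14, 250 bases before to 50 after the start) ran over them. Only the window over the first ARID1B peak is that of the member itself. The bases read there, 156777128 to 156777355, all lie before the start site that defines this window, though inside the RefSeq span of ARID1B. Of the 361 bases of that peak, 347 were also under the minus-strand peak of ENSG00000271551, so the signal cannot be assigned to either strand. Those over the strongest ARID1A peak and the third ARID1B peak belong to the minus-strand genes LOC124900417 and LOC115308161, and were turned to the strand of the member. The windows covered 300 bases of the strongest ARID1A peak, 228 bases of the first ARID1B peak and 95 bases of the third ARID1B peak, 623 bases or 5.32% of all member peak bases. The G and C content was 76.7%, 76.3% and 69.5%, against a median of 58.7% over all 35116 windows. The m6A context was searched as NNACN, with A, G or T at the first base, A or G at the second and A, C or T at the last. It occurred 2, 1 and 1 times on the strand of the transcript and 1, 4 and 0 times on the other strand. For comparison, 97.2% of all windows, which are 300 bases long and so longer than 2 of the 3 stretches, held it on the strand of their gene, at a mean of 4.55 per window. GGACT, a common form of the context, was absent from the transcript strand of these 623 bases and occurred 2 times on the other strand of the ARID1B window, and 25.3% of all windows held it on the strand of their gene. All 4 occurrences are shown in the direction of the transcript, because they are the matches to the m6A context in the part of these peaks that could be read. Capitals mark the 5 bases of the match.
ARID1A, peak 2, chr1:26696356-26696379, plus strand: aagacgaAGACAgggccgggtctc
ARID1A, peak 2, chr1:26696378-26696406, plus strand: tctccgcggacgAGACAgcggggatcatg
ARID1B, peak 1, chr6:156777128-156777149, plus strand: caaggAGACAgcggcccggggg
ARID1B, peak 3, chr6:156778686-156778714, plus strand: gatcaacatggcGGACAacaaagccccgg
The matches in ARID1A peak 2 and ARID1B peak 1 read AGACA, and the one in ARID1B peak 3 read GGACA and began 24 bases after the start of that peak. A match describes the sequence and is not a mapped site.

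Among plus-strand genes, those most like ARID1A over 4 ranked measures (number of peaks, bases under peaks, strongest score and share of bases in the last 10% of the span, 2689 genes) were SPEN, SRCAP and ZNF865, at distances of 3.44, 5.43 and 5.91 percentile points. SPEN had 12 peaks with 2740 bases and SRCAP, itself a chromatin remodelling ATPase gene, had 6 with 1836 bases. The nearest to ARID1B were ZNF263, ZNF646 and NSD1, at 4.91, 6.27 and 7.14 percentile points.

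The ATPase paralogues SMARCA4 and SMARCA2, both on the plus strand, had unlike peaks. SMARCA4 (ENSG00000127616.18, chromosome 19) had 3 peaks with 453 bases, and its strongest was almost as strong as that of ARID1A (1.3e-22), reached by 16.5% of plus-strand genes. That peak ran over 4 blocks of 100, 143, 42 and 16 bases from 11059786 to 11061758 with its 3′ edge 515 bases from the end of the span. After 239 bases it was followed by a peak of 91 bases (0.0011), and together they held 86.5% of the peak bases of the gene. Another weak peak of 61 bases (0.0043) lay at 38.3% of the span in 2 blocks 6484 bases apart. SMARCA2 (ENSG00000080503.24, chromosome 9) had a single peak of 151 bases in 2 blocks, 2060947 to 2069041, at 27.8% of its span and with no peak in the last 10%. Its score of 0.001 was among the weaker ones, since 88.3% of plus-strand genes with a peak had a smaller or equal score. It was the only one of the 7 genes with no peak at or under the list median. Without expression values this difference cannot be told apart from a difference in transcript abundance between the paralogues.

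EP300 and CREBBP, close paralogues, are on opposite strands, so that their scores differ by strand as well as by gene, and gene and strand cannot be told apart. Each had 5 peaks. EP300 (ENSG00000100393.14, chromosome 22, plus strand) had 1744 bases under peaks, and all 5 scores were at or under the list median. The strongest, 41117445 to 41117745, was 301 bases long and lay at 28.6% of the span (6.3e-17). A peak of 181 bases in 2 blocks followed at 92.1% (1.3e-08). The last 3 stood within 1890 bases, from 41177109 to 41178998, with lengths of 631, 270 and 361 bases and nearly equal scores of 4.2e-10, 8.3e-10 and 5.6e-10. CREBBP (ENSG00000005339.15, chromosome 16, minus strand) had 3064 bases under peaks, the most of the 7 genes. Its strongest peak was a single block of 2010 bases, 3727514 to 3729523, with a score of 1e-220, which ended 2460 bases before the 3′ end. As long a peak was found for 0.291% of peaks of minus-strand protein-coding genes.

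The order of peaks along both genes was similar. CREBBP had 1 peak in the first 30% of the span, 421 bases at 19.3% (3850391 to 3850811, score 2.5e-100), where EP300 had its strongest. A peak over several blocks lay at 94.4% in CREBBP (271 bases in 3 blocks, 6.3e-39) and at 92.1% in EP300. The final stretch of 1890 bases that held 3 peaks in EP300 was matched in length by the single CREBBP peak of 2010 bases. CREBBP had a pair of peaks at 70.6% and 72.1% (121 bases, 6.5e-05, and 241 bases, 6.3e-20). No EP300 peak was listed near those percentages of its span. Exons of the paralogues were not matched to each other. EP300 is on the plus strand, where listed peaks were weaker, so gene and strand cannot be told apart here either. Among genes on its own strand, a peak as strong as the strongest of CREBBP was found for 11.7%, and 20.9% reached that of EP300.

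BRD3 (ENSG00000169925.17, chromosome 9, minus strand) had 5 peaks with 2099 bases, and its homologue BRD2 had none. Its peaks lay at 39.0% to 98.6% of a span of 38244 bases, and 4 of the 5 ran over 2 or 3 blocks. The strongest score was 3.2e-85 (300 bases in 3 blocks, 134036569 to 134041800), which 28.8% of minus-strand genes reached. The longest peak held 1138 bases in blocks of 242, 129 and 767 bases (1.6e-51) and began 299 bases after it. Peaks nearer the 5′ end had scores of 3.2e-05 (180 bases) and 2e-24 (211 bases). The last peak, 270 bases with a score of 7.9e-15, ended 389 bases before the 3′ end and 269 of its bases were also under a peak of BRD3OS, an overlapping gene of the plus strand, whose score was 6.3e-15. Which of these transcripts it belongs to cannot be read from the list.

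**Figure D2:**
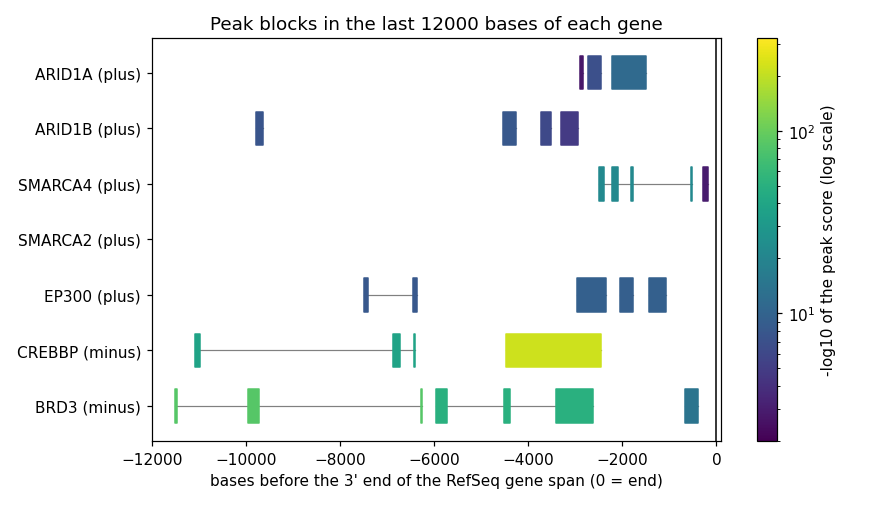
Blocks of every peak near the 3′ end of the 7 genes, drawn to scale against the distance to the 3′ end of the RefSeq span (horizontal axis, bases); thin lines join blocks of 1 peak and the colour is the −log10 of its score on a log scale. The CREBBP block of 2010 bases is the longest and the 3 final EP300 peaks cover 66.8% of a stretch of 1890 bases, ARID1A and ARID1B each end in 3 peaks, and SMARCA2 has none.

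Towards the 3′ end, 16 of the 32 peaks that lay inside the span of their gene had their midpoint in the last 10%, and that part held 61.7% of the peak bases. By number, 13 of 22 plus-strand peaks lay there against 36.4% of the peaks of all plus-strand protein-coding genes, and 3 of 10 minus-strand peaks against 37.8%. By bases, 59.7% of plus-strand member bases lay there against 35.8% for all plus-strand protein-coding genes, and 64.3% against 38.6% on the minus strand. The minus-strand members were thus above the background by bases, to which the long CREBBP peak adds 2010. By number, 3 of 10 peaks on CREBBP and BRD3 is near the background share. SMARCA4 had 86.5% there, EP300 82.7%, CREBBP 74.4%, ARID1B 54.1%, BRD3 49.4%, ARID1A 45.5% and SMARCA2 0%. The last 10% is a longer piece of a long gene: within 5000 bases of the 3′ end the member shares were 54.6% and 61.5%, against 57.9% and 54.7% for all genes of the plus and the minus strand. On the plus strand the members thus stood above the background by the first measure and not by the second. At the other end, 5 of the 32 peaks (15.6%) had their midpoint in the first 10%, all of them on ARID1A and ARID1B. Set against their own strand, that was 5 of 22 plus-strand peaks (background 13.2%) and 0 of 10 minus-strand peaks (background 12.1%). With so few peaks and genes, no difference from the background is read from these counts. The first 10% is also a longer piece of a long gene, and a fixed distance from the 5′ end was not compared.

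Of the plus-strand member peaks, 12 of 23 (52.2%) were at or under the list median against 31.4% of plus-strand protein-coding peaks. On the minus strand it was 8 of 10 (80.0%) against 60.9%. The plus-strand share was uneven between genes: EP300 had 5 of 5, ARID1A and ARID1B 3 of 7 each, SMARCA4 1 of 3 and SMARCA2 0 of 1. CREBBP and BRD3 had 4 of 5 each. No test was made, because peaks of 1 gene are not independent and the members were chosen with earlier results of these data known. Median length was 270 bases on the plus strand against 181, and 270.5 on the minus strand against 241. Of 18 pairs of neighbouring peaks on plus-strand members, 10 lay within 1000 bases of each other, against 55.5% of such pairs over all plus-strand protein-coding genes. On the minus-strand members it was 1 of 8 pairs, against 48.8%.

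By their strongest peak the members other than SMARCA2 ranked in the upper part of the genes of their strand. ARID1A reached 16.4%, SMARCA4 16.5%, EP300 20.9% and ARID1B 33.2%. When the −log10 scores of all peaks of a gene were summed, these ranks were 7.91%, 17.6%, 9.23% and 10.4%, and that of CREBBP went from 11.7% to 4.62%. Against protein-coding genes of both strands the plus-strand ranks fell back to 43.0% for ARID1A, 43.1% for SMARCA4, 48.3% for EP300 and 59.5% for ARID1B, while those of CREBBP and BRD3 were 8.08% and 20.3%, so that the rank of these genes depends on the strand they are compared with.

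**Figure D3:**
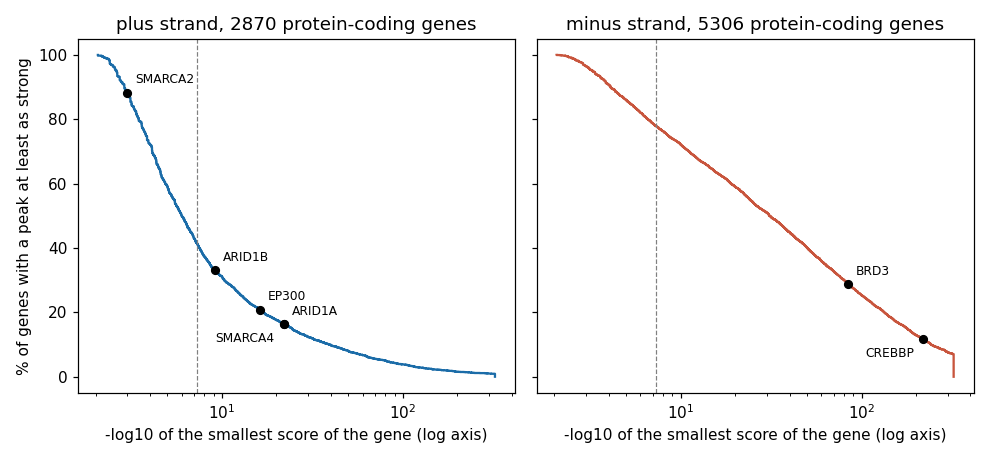
The share of protein-coding genes with a peak (vertical axis, %) that were at least as strong as the −log10 smallest score on the horizontal log axis, for 2870 plus-strand (left) and 5306 minus-strand genes (right), with member genes as black points and the list median as a dashed line. SMARCA2 lies at 88.3% and the other 4 plus-strand members between 16.4% and 33.2%, and CREBBP (11.7%) lies above BRD3 (28.8%) in strength.

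Related genes were described from a list of 75 in 4 classes. A peak was found on 58 of them (77.3%), against 40.8% of all protein-coding genes of both strands. On 45 of the 75 at least 1 peak was at or under the list median, against 26.6% of protein-coding genes. Both backgrounds include genes these cells may not express. Of the related genes with a peak, 37 of 40 on the minus strand were at or under the median, against a background of 77.9%. On the plus strand it was 8 of 18, near the background of 41.5%. Among other SWI/SNF subunits 18 of 23 had a peak, led in both strength and number by SMARCC2, a core scaffold subunit, with 6 peaks and a smallest score listed as 0. SMARCB1, SMARCD1, ACTL6A, ACTL6B (a subunit of neurons) and DPF2 had none. Of the other remodelling ATPase genes 14 of 16 had a peak. CHD6 had the smallest score (1e-301) and ATRX the most peaks (7), and SMARCA5 and SMARCAD1 had none.

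Acetyltransferase and coactivator genes other than EP300 and CREBBP had a peak in 5 of 11 cases (45.5%), near the 40.8% of all protein-coding genes of both strands. KAT6A was the strongest (1e-165) and had the most peaks (4, with 3903 bases), while KAT2B, KAT6B, KAT7, KAT8, HAT1 and NCOA3 had none. Among other bromodomain genes 21 of 25 had a peak. BRD8, BAZ1B and ZMYND8 each had a smallest score listed as 0, and ASH1L had the most peaks (7). BRDT, a gene of the male germ line, TAF1, TRIM28 and SP100 had no peak.

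**Figure D4:**
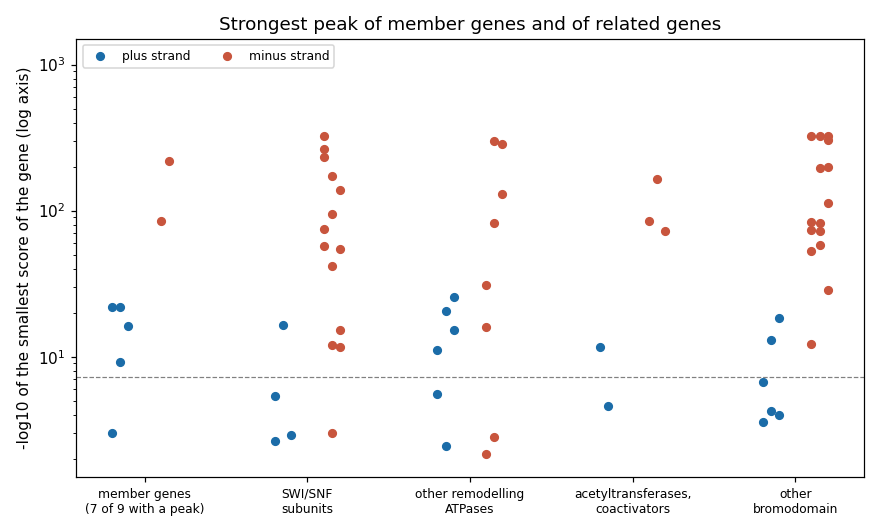
Each point is the −log10 smallest score (log axis) of 1 gene with a peak, for the members and the 4 classes of related genes, with plus-strand genes in blue and minus-strand genes in red and the list median as a dashed line; scores listed as 0 are drawn at the top. Of the related genes, 37 of 40 red and 8 of 18 blue points lie on or above the dashed line, and the minus-strand members CREBBP (220) and BRD3 (84.5) lie above the plus-strand members on this scale, which is not adjusted for strand.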

How the data were processed

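Libraries were grouped by title as m6A IP or input, 2 each. The authors mapped reads with STAR to GENCODE v33 (hg38 per the labels), called peaks with exomePeak and filtered them by fold enrichment and FDR. The deposited score column was read as a p-value per peak. Its header names neither unit nor build, and scores of 0 were ranked as the smallest.

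Ensembl IDs without version were matched to symbols (10103 of 10140), and biotypes and spans came from RefSeq GRCh38.p14 by symbol. Coordinates are those of the list, from 1. Overlap required 1 shared base of the blocks. All 9 members were named, with every peak. From the list of 75 related genes, those named had the smallest score or most peaks of their class, or no peak. Members and lists were chosen with earlier results of these data known. No test was run, since there is 1 value per peak and genes are not replicates. The overlap and merging functions were tested on simulated data. Python 3.11.15 with pandas 2.3.3 was used.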

Additional observations from a re-analysis of the deposited data

How the results depend on the processing

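The number of member peaks (33) did not change when overlapping peaks were merged or in the first block of the list by itself, and was 30 once peaks with an opposite-strand overlap were removed. A restriction to scores at or under the list median left 20 peaks on 6 of the 7 genes. The median rank of the members by smallest score, 20.9% of same-strand genes, was 43.1% against genes of both strands, 10.4% with −log10 scores summed over the peaks of a gene, 17.3% without peaks that had an opposite-strand overlap, and 22.0% against all biotypes. The median rank by number of peaks, 8.33%, was 1.6% when bases under peaks were ranked. The share of peak bases in the last 10% of the span (61.7%) was 57.2% without CREBBP, in an alternative added after seeing the data. For the last 5000 bases the member share was 57.7%. The background there was 57.9% on the plus and 54.7% on the minus strand, against 35.8% and 38.6% in the last 10%. The cause was not tested for any of them. No paired analysis was possible because each peak has a single score, with no replicate to block or to leave out. The alternative for coding sequence and 3′ UTR was not run, since a map of exons was not used here. Read depth is unknown, which limits what can be said of ARID2 and BRD2.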
